A study of Mus musculus with 18 samples.

Results

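The genes described here encode ubiquitin-conjugating (E2) and deubiquitinating enzymes, measured in mouse haematopoietic stem cells (HSCs) with and without deletion of the m6A methyltransferase gene Mettl3. They were chosen by name. A gene was taken where its symbol began with Ube2, Usp followed by a digit, Otud or Uch, with Usp18, Ube2c and pseudogene symbols left out. A mean of at least 5 RPKM (reads for each kilobase of a gene in every M reads sequenced, where M is 1000000) over the 6 deposited columns was also required. Of 23038 genes in the tables, 98 matched by name and 58 reached the minimum. These are 27 E2 enzymes, 30 deubiquitinases (24 of the ubiquitin-specific protease or USP family, 4 of the ubiquitin C-terminal hydrolase or UCH family, and 2 OTU-domain enzymes) and Ube2cbp, which matches by name but is not an E2 enzyme. Uchl1, at a mean of 5.35 RPKM, lay just inside the minimum, and Usp40, at 4.73 RPKM, just outside it. The 40 genes below the minimum include Usp7, Usp9x and Usp34. All 8092 genes that reached the same mean are the background to which the members are compared.

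Ubiquitin is a small protein that is attached to other proteins in a relay. An E1 enzyme activates it, an E2 enzyme carries it, and an E3 ligase directs it to a target, which is then degraded, moved or switched in its activity. SUMO, NEDD8 and ISG15 are ubiquitin-like proteins with relays of their own. Deubiquitinases cut ubiquitin off again. The balance matters in blood stem cells, where, for example, monoubiquitination of the Fanconi anaemia protein FANCD2 by UBE2T and its removal by USP1 belong to a DNA repair pathway whose loss leads to bone marrow failure. METTL3 is the catalytic subunit of the complex that writes N6-methyladenosine (m6A) into mRNA.

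The Mettl3-deficient mice carried Mx1-cre and floxed Mettl3 alleles (Mx1-cre; Mettl3fl/fl), the other mice were wild-type, and all were C57BL/6. Mice of both genotypes received pIpC, a double-stranded RNA that induces Mx1-cre through interferon, as 5 injections of 10 µg, and were killed 10 days after the last, so the wild-type samples share the interferon stimulus. Mx1-cre acts in many haematopoietic cells and outside the blood, not in HSCs alone. Adult bone marrow HSCs were sorted as Lineage- Sca1+ cKit+ CD150+ CD48- cells, 3000 per sample, and their polyadenylated RNA was split into m6A-tagged RNA bound by an anti-m6A antibody (1.25 µg), unbound RNA and input RNA. With 3 libraries for each genotype and fraction there were 18 libraries in 6 groups. The mice's age is not given in the sources used here.

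Each of the 6 deposited columns holds 1 value per gene for 3 libraries, taken to be the authors' mean. No value therefore has a replicate error here and no comparison below could be tested. A difference counts as a call where it reached 2-fold on the log2(RPKM + 1) scale, and every fold or log2 ratio below is on that scale, which understates differences of low values. Estimated depth was 25.9 to 33.6 M reads per Mettl3-deficient m6A-tagged library, 12.2 to 27.3 M per unbound and 9.42 to 30.1 M per input library. In wild-type the depths were 30.3 to 35.0 M for m6A-tagged, 24.3 to 27.4 M for unbound and 28.3 to 37.2 M for input libraries. As a harmonic mean over the 3 libraries of a group, 1 RPKM stands for 15.8 (Mettl3-deficient unbound) to 32.9 (wild-type m6A-tagged) reads per kilobase. In the shallowest Mettl3-deficient unbound library it stands for 12.2, so low unbound values rest on few reads. Mettl3 itself stood at 17.4, 11.2 and 19.6 RPKM in Mettl3-deficient m6A-tagged, unbound and input RNA, against 36.1, 33.2 and 36.4 RPKM in the same wild-type fractions. It was lower in the Mettl3-deficient columns but not absent, in counts over the whole gene. All 12 HSC markers examined were at or above 1 RPKM in the input of both genotypes. Among them Ly6a had 348 RPKM in Mettl3-deficient and 118 RPKM in wild-type input, and Kit had 92.4 and 165 RPKM. The sums of several lists of mature cell markers also differed with genotype. The 9 neutrophil genes, all at or above 1 RPKM, summed to 1204 to 2634 RPKM over the Mettl3-deficient columns and 6730 to 9669.5 RPKM over the wild-type columns. The 4 eosinophil and basophil genes summed to 19.1 to 47.7 and 745 to 1144 RPKM, the 6 erythroid genes to 47.5 to 65.6 and 161 to 203 RPKM, and the 6 megakaryocyte genes to 266 to 446 and 609 to 999 RPKM in Mettl3-deficient and wild-type columns. Single genes of these lists went the other way. In unbound RNA Prtn3 had 1020 RPKM in Mettl3-deficient and 774 RPKM in wild-type cells, and Gp9 95.3 and 51.0 RPKM. Ppbp had 7.93 and 5.07 RPKM there, and Mcpt8 21.2 and 18.0 RPKM. In m6A-tagged RNA Itga2b had 109 and 89.7 RPKM. Cd48, the negative sort marker, stood at 5.54 RPKM in Mettl3-deficient and 15.5 RPKM in wild-type input. Monocyte and macrophage genes (6) summed to 86.9 to 184 RPKM in Mettl3-deficient and 130 to 192 RPKM in wild-type columns, and T and NK cell genes (6) to 49.3 to 224 and 154 to 374 RPKM. Of these 6, Cd3e and Cd8a were below 0.12 RPKM in every column, while Cd3d had 0.120 to 1.6 RPKM in Mettl3-deficient and 14.4 to 21.5 RPKM in wild-type columns, and Nkg7, which made up most of the sum, had 46.2 to 223 and 135 to 352 RPKM. Among the monocyte and macrophage genes, Cd68 had 61.7 RPKM in Mettl3-deficient and 20.5 RPKM in wild-type input, and Ly6c2 6.15 and 90.7 RPKM. The 6 B cell genes summed to 91.5 to 139 RPKM in Mettl3-deficient and 26.6 to 156 RPKM in wild-type columns. Most of that sum was Cd79b, at 90.6 and 84.7 RPKM in input. Of 5 endothelial and stromal genes only Pecam1 reached 1 RPKM, at 16.1 to 58.7 RPKM in Mettl3-deficient and 7.03 to 38.0 RPKM in wild-type columns, while Cdh5, Cxcl12 and Lepr were below 0.12 RPKM in every column.

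The level of the members spanned from a few RPKM to over 100 RPKM, and the highest were spread over several roles. Ube2l6, the E2 enzyme of ISG15 and an interferon-induced gene, was the highest in input, at 182 RPKM in Mettl3-deficient cells and 145 RPKM in wild-type cells. Usp39, a splicing factor with a USP fold that lacks catalytic residues, had 83.8 RPKM in Mettl3-deficient and 101 RPKM in wild-type input. Uchl5 and Usp14, deubiquitinases that bind the proteasome, had 84.6 and 46.4 RPKM in Mettl3-deficient input, against 95.8 and 53.8 RPKM in wild-type input. These genes all stayed within 2-fold between the genotypes in input. Usp5, which takes apart free ubiquitin chains, had 94.2 RPKM in Mettl3-deficient and 89.3 RPKM in wild-type input. The other members among the 10 highest in wild-type input were Ube2e3, Ube2e1 and Ube2d3 (E2 enzymes that work with many RING-type ligases), Uchl3 (which trims ubiquitin and NEDD8 precursors) and Ube2a (a RAD6-type E2 enzyme of DNA damage tolerance), at 39.6 to 81.9 RPKM in Mettl3-deficient and 56.4 to 71.4 RPKM in wild-type input. The median member stood at 18.4 RPKM in Mettl3-deficient and 22.4 RPKM in wild-type input, against 23.1 and 25.4 RPKM for all genes. Ube2d and Ube2e genes are families of similar sequence, and Uchl4 is a copy of Uchl3; how reads that match more than 1 of them were counted is not given in the sources used here, so their separate levels are uncertain.

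**Figure D1:**
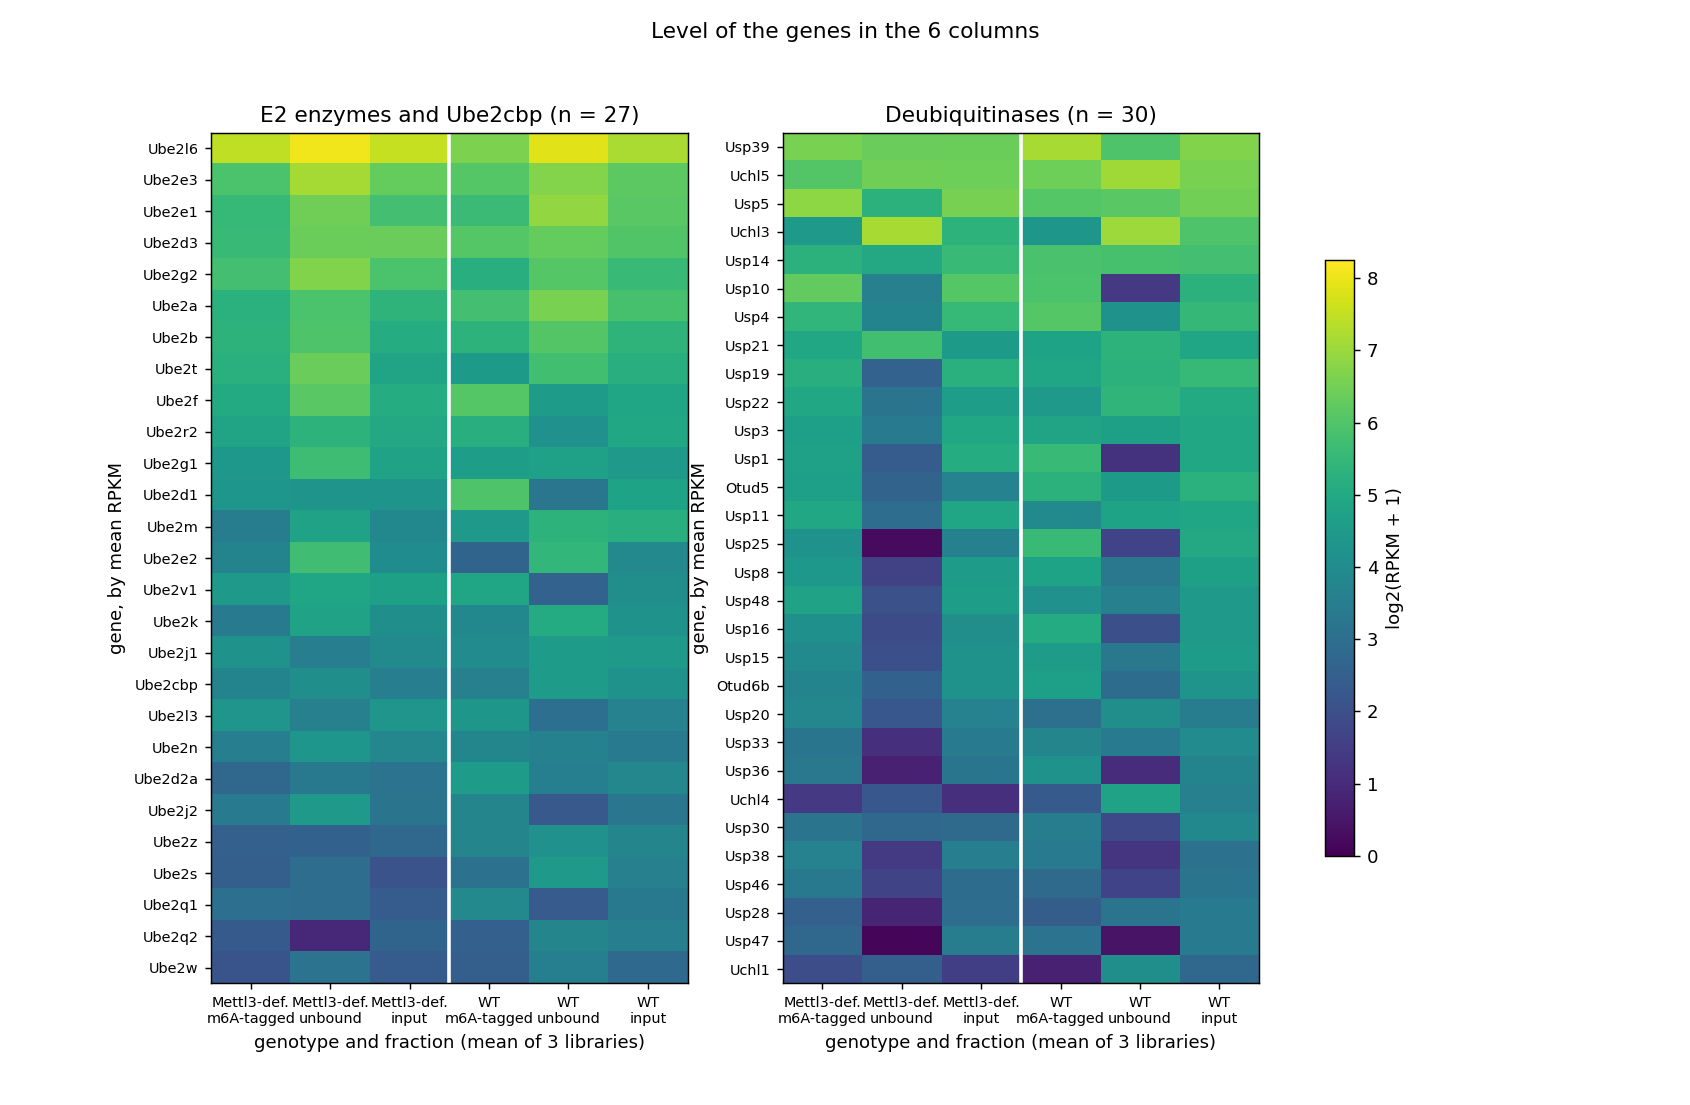
Heat map of the level of the members, log2(RPKM + 1), with 1 member not shown, in the 6 columns, each the authors' mean of 3 libraries, with the 3 Mettl3-deficient columns left of the 3 wild-type columns in each panel; E2 enzymes and Ube2cbp are on the left and deubiquitinases on the right, ordered by mean RPKM. Many USP genes are darkest in unbound RNA (Usp25 at 0.193 RPKM in Mettl3-deficient cells and 2.13 RPKM in wild-type cells), while most E2 enzymes and the 4 UCH genes are brightest there.

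When m6A-tagged RNA was set against unbound RNA, the 2 enzyme families stood apart, which they did not against input (below). Most USP genes stood higher in m6A-tagged RNA than in the unbound fraction, and most E2 enzymes did not, in both genotypes. Over all 58 members, 23 stood 2-fold above and 10 stood 2-fold below their unbound level in the m6A-tagged RNA of Mettl3-deficient cells (39.6% and 13.9% of all genes), and 22 were higher and 12 lower in wild-type cells (36.9% and 16.4% of all genes). The members' median log2 ratio was 0.07 in Mettl3-deficient cells and -0.10 in wild-type cells, below those of all genes at 0.57 and 0.36. Of the 30 deubiquitinases, 22 were higher and 1 was lower in Mettl3-deficient cells, with a median log2 ratio of 1.73, and 14 were higher and 4 lower in wild-type cells, with a median of 0.69. Of the 27 E2 enzymes, 1 was higher and 9 were lower in Mettl3-deficient cells, with a median of -0.66, and 8 were higher and 8 lower in wild-type cells, with a median of -0.54. With median-of-ratios scaling of the columns, which moved the medians of all genes to 0.07 and -0.01, the members split into 21 higher and 21 lower in Mettl3-deficient cells (28.2% and 23.99% of all genes) and 16 higher and 22 lower in wild-type cells (30.6% and 25.4% of all genes). The family medians kept their signs with that scaling, at 1.28 and 0.32 for deubiquitinases and -1.20 and -0.90 for E2 enzymes in Mettl3-deficient and wild-type cells. Because the fractions were amplified separately, a ratio gives a share of each fraction's reads and not an amount of bound RNA.

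**Figure D2:**
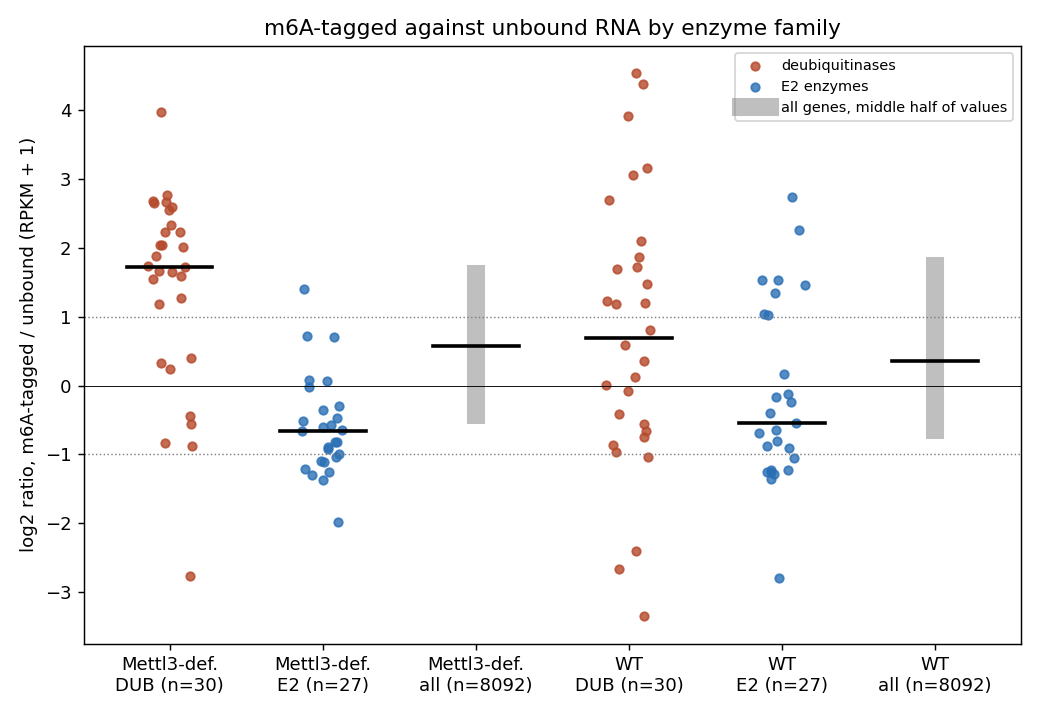
Each point is 1 gene's log2 ratio of m6A-tagged to unbound RNA, (RPKM + 1)/(RPKM + 1), for deubiquitinases and E2 enzymes, with black bars at the medians and grey bars over the middle of all 8092 genes (from the lower to the upper quartile); dotted lines mark 2-fold. Deubiquitinases have medians of 1.73 in Mettl3-deficient cells and 0.69 in wild-type cells, above those of E2 enzymes at -0.66 and -0.54.

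Deubiquitinases with the largest ratios had little RNA in the unbound fraction. Usp10, which acts on p53 and in stress granules, had 76.5, 11.2 and 65.7 RPKM in m6A-tagged, unbound and input RNA of Mettl3-deficient cells, against 59.2, 1.59 and 38.2 RPKM in wild-type cells. Usp1 had 25.5, 4.25 and 33.3 RPKM in the same fractions of Mettl3-deficient cells, against 47.2, 1.32 and 29.2 RPKM in wild-type cells. Both were low only in unbound RNA, and the log2 ratio of m6A-tagged to unbound RNA was 2.67 in Mettl3-deficient cells and 4.54 in wild-type cells for Usp10 and 2.34 and 4.37 for Usp1. Usp25, a deubiquitinase of innate immune signalling, had 17.8, 0.193 and 11.2 RPKM in Mettl3-deficient m6A-tagged, unbound and input RNA, against 46.1, 2.13 and 30.5 RPKM in wild-type. Its log2 ratios of 3.97 in Mettl3-deficient cells and 3.91 in wild-type cells rest on the added 1 RPKM, since the unbound values are low, and with 0.1 RPKM added they were 5.93 and 4.37. Usp36, a nucleolar deubiquitinase that stabilises MYC, had ratios of 2.55 and 3.15, and Usp16, which removes ubiquitin from histone H2A, had 2.23 and 3.06 in Mettl3-deficient and wild-type cells.

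In all, 12 members stood 2-fold or more above their unbound level in the m6A-tagged RNA of both genotypes, and all 12 were deubiquitinases (23.6% of all genes met this). Besides the 5 genes above they were Usp4 and Usp15 (related enzymes of TGF-beta signalling), Usp46 (which works with WDR48), Usp8, Usp38, Usp47 and Otud6b. Usp8, which sorts receptors at endosomes, had 19.9, 2.08 and 22.7 RPKM in Mettl3-deficient m6A-tagged, unbound and input RNA, against 26.3, 8.79 and 24.8 RPKM in wild-type. Usp47, a deubiquitinase of the base excision repair polymerase, had the lowest unbound value of any member in both genotypes, at 0.101 RPKM in Mettl3-deficient cells and 0.345 RPKM in wild-type cells. Those values stand for under 10 reads per kilobase in a library. The remaining 5 had log2 ratios of 1.18 to 2.23 in Mettl3-deficient cells and 1.18 to 2.10 in wild-type cells.

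The rank of unbound RNA needs no threshold but uses the same columns, so it is another view of this division and not separate evidence. Unbound RNA was the lowest of the 3 fractions in both genotypes for 19 members (42% of all genes), of which 18 were deubiquitinases and 1, Ube2l3, was an E2 enzyme that serves HECT and RBR ligases. Unbound RNA was the highest of the 3 in both genotypes for 21 members (22.8% of all genes), made up of 15 of the 27 E2 enzymes, Ube2cbp and 5 of the 30 deubiquitinases. Those 5 were Usp21, a histone H2A deubiquitinase, and all 4 UCH genes. With median-of-ratios scaling the counts were 15 deubiquitinases and 1 E2 enzyme with unbound lowest, and 5 deubiquitinases and 17 E2 enzymes with unbound highest (32.0% and 32.4% of all genes). With upper-quartile scaling unbound was lowest for 18 deubiquitinases and 2 E2 enzymes (44.4% of all genes). It was highest for 4 deubiquitinases, 3 of them UCH genes, and for 13 of the 27 E2 enzymes (21.6% of all genes).

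In the columns as deposited, the UCH genes stood highest in unbound RNA, unlike most other deubiquitinases. Uchl3 had 20.5, 144 and 39.6 RPKM in Mettl3-deficient m6A-tagged, unbound and input RNA, against 19.6, 129 and 62.3 RPKM in wild-type, with log2 ratios of m6A-tagged to unbound RNA of -2.76 and -2.66. Uchl1, a hydrolase best known from neurons, had 2.83, 4.64 and 1.90 RPKM in Mettl3-deficient cells, against 0.684, 16.2 and 5.88 RPKM in wild-type cells. Uchl4 had 1.6, 3.77 and 1.17 RPKM in Mettl3-deficient cells, against 4.07, 25.8 and 11 RPKM in wild-type cells. The ratios of these 2 low genes were -0.56 and -0.88 in Mettl3-deficient cells and -3.35 and -2.40 in wild-type cells, and m6A-tagged values of 0.684 to 4.07 RPKM stand behind them. Both genes reached the minimum mean only through their wild-type unbound value. Ratios and ranks that use this value are therefore partly set by the choice of members. Uchl5 was within 2-fold, with 64.4, 87.6 and 84.6 RPKM in Mettl3-deficient cells, against 84.3, 133 and 95.8 RPKM in wild-type cells.

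Among E2 enzymes the lower ratios were shared by several roles. Ube2e2 had 12.3, 51.7 and 15.2 RPKM in Mettl3-deficient m6A-tagged, unbound and input RNA, against 5.30, 42.8 and 13.9 RPKM in wild-type, with log2 ratios of -1.98 and -2.80. Ube2k (which extends K48-linked chains), Ube2t (the Fanconi E2 enzyme) and Ube2w (which modifies protein N-termini) were also 2-fold lower in both genotypes, with ratios of -1.36 to -1.0 in Mettl3-deficient cells and -1.25 to -1.05 in wild-type cells. With Ube2e2 and Uchl3 they are the 5 members lower in both genotypes (7.44% of all genes). Lower in Mettl3-deficient cells but not at 2-fold in the same direction in wild-type cells were Ube2m and Ube2f (the pair of NEDD8 E2 enzymes), Ube2g1 and Ube2j2 (of endoplasmic reticulum-associated degradation) and Ube2e3, at -1.29 to -1.03. Lower in wild-type cells only were Ube2s (which extends K11-linked chains for the anaphase-promoting complex), Ube2e1 and Ube2l6, at -1.36 to -1.25, beside Uchl1, Uchl4, Usp20 and Ube2q2. The K63 chain enzyme Ube2n had ratios of -0.82 in Mettl3-deficient cells and 0.17 in wild-type cells, neither at 2-fold.

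Some members changed sides or moved far between the genotypes. The genotype difference of m6A-tagged to unbound ratios, Mettl3-deficient minus wild-type, was at least 2-fold higher for 15 and lower for 11 members (23.2% and 23.1% of all genes). Of the 15, 13 were deubiquitinases, and of the 11, 8 were E2 enzymes. Usp19 (anchored in the endoplasmic reticulum) had 35.0 and 4.98 RPKM in Mettl3-deficient m6A-tagged and unbound RNA, against 28.6 and 38.4 RPKM in wild-type, a difference of 3.00 on the log2 scale. Usp11 (a partner of BRCA2) had 30.1 and 6.72 RPKM in Mettl3-deficient m6A-tagged and unbound RNA, against 14.3 and 26.8 RPKM in wild-type, a difference of 2.87. Usp22 (the histone H2B deubiquitinase of the SAGA complex) had 29.2 and 8.06 RPKM, against 20.8 and 41.3 RPKM in wild-type, a difference of 2.69. In these 3 genes the unbound column moved more than the m6A-tagged column. Uchl1, Usp20, Ube2q2, Usp28 (of MYC turnover), Usp48, Usp33, Usp5, Uchl4 and Usp8 followed, with differences of 2.79 down to 1.28.

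In the other direction, Ube2d1, a general RING partner, had 19.2 and 18.3 RPKM in Mettl3-deficient m6A-tagged and unbound RNA, against 62.2 and 8.49 RPKM in wild-type, a difference of -2.67. Ube2f had 32.1 and 69.8 RPKM, against 65.8 and 22 RPKM in wild-type, a difference of -2.64. Ube2v1, the inactive partner of Ube2n in K63 chain building, had 21.3 and 27.6 RPKM, against 28.3 and 5.09 RPKM in wild-type, a difference of -2.62. For these 3 E2 enzymes the unbound value was higher and the m6A-tagged value lower in Mettl3-deficient than in wild-type cells. Ube2j2, Usp1, Usp10, Ube2d2a, Ube2r2 (a CDC34-type enzyme of cullin ligases), Ube2q1, Usp30 (of mitochondria) and Ube2g1 followed, at -2.49 to -1.14. Ube2f and Ube2j2 were 2-fold lower in m6A-tagged than in unbound RNA in Mettl3-deficient cells and 2-fold higher in wild-type cells (0.531% of all genes), while Ube2q2 and Usp20 were higher in Mettl3-deficient cells and lower in wild-type cells (1.3% of all genes).

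Genomic span of a gene, from start to end in the RefSeq annotation, was examined because it moved with the ratio over all genes. Spearman's rho between span and the log2 ratio of m6A-tagged to unbound RNA was 0.42 in Mettl3-deficient cells and 0.12 in wild-type cells over 8084 genes, which share the same columns. Over the 30 deubiquitinases it was 0.44 and 0.33, and over the 27 E2 enzymes -0.27 and 0.01 in Mettl3-deficient and wild-type cells. Median spans of the families were close, at 35.4 kb for deubiquitinases and 30.0 kb for E2 enzymes (17.9 kb for all genes). In the fifth of genes with the longest spans, 11 deubiquitinases had a median ratio of 2.05 in Mettl3-deficient cells and 1.22 in wild-type cells, 9 E2 enzymes had -1.0 and -1.05, and all genes had 1.5 and 0.74. In the group of genes next in span the 6 E2 enzymes had medians of -0.69 in Mettl3-deficient cells and 1.28 in wild-type cells. There the 9 deubiquitinases had 1.59 and 0.80, below the E2 enzymes in wild-type cells, and all genes had 1.08 and 0.46. In the shorter groups, from the shortest up, Mettl3-deficient medians were -0.85, 2.34 and 1.55 for deubiquitinases and -0.88, -0.62 and -0.48 for E2 enzymes. Wild-type medians were -1.48, -0.41 and -0.07 for deubiquitinases and -1.13, -1.02 and -0.47 for E2 enzymes. Each of these groups held 2 to 6 genes of a family. Ube2e2, whose span of 321 kb is the largest among the members, was 2-fold lower in m6A-tagged than in unbound RNA in both genotypes. The length of the mature mRNAs is not used here, and its part in the family difference was not tested.

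**Figure D3:**
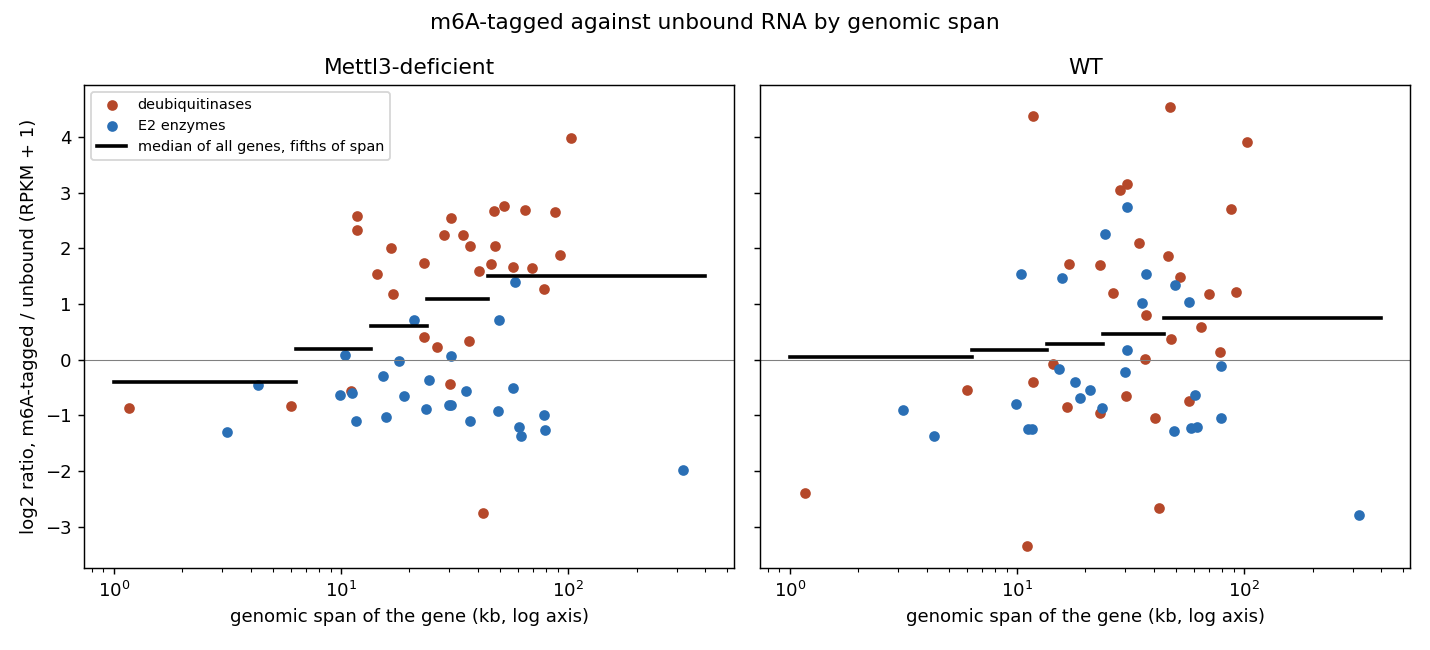
Log2 ratio of m6A-tagged to unbound RNA, (RPKM + 1)/(RPKM + 1), against genomic span in kb on a log axis, with 1 point per gene, Mettl3-deficient cells on the left and wild-type cells on the right; black steps are medians of all genes in 5 equal groups by span. The steps climb with span, to 1.5 in Mettl3-deficient cells and 0.74 in wild-type cells. In Mettl3-deficient cells most E2 enzymes lie below the steps.

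Set against input, the m6A-tagged fraction differed little for most members. In Mettl3-deficient cells 1 member was 2-fold higher and 0 were lower (1.94% and 1.29% of all genes), and in wild-type cells 2 were higher and 5 lower (4.44% and 5.07% of all genes). Median log2 ratios of the members were -0.08 in Mettl3-deficient cells and -0.09 in wild-type cells, against 0.13 and 0.09 for all genes. The family medians lay close together, at 0.10 and -0.14 for deubiquitinases and -0.16 and -0.06 for E2 enzymes. In wild-type cells their order was the reverse of that against unbound RNA. Whatever the size, 11 members had a ratio above 0 in both genotypes (39.3% of all genes) and 18 a ratio below 0 in both (21.9% of all genes). In wild-type cells the higher pair were Ube2f, with 65.8 RPKM in m6A-tagged and 27.6 RPKM in input RNA, and Ube2d1, with 62.2 and 26.4 RPKM. Their log2 ratios were 1.22 and 1.21, and Ube2v1, Ube2d2a and Ube2l3 came next at 0.78, 0.74 and 0.70, under 2-fold. In Mettl3-deficient cells the same 5 genes had ratios of -0.36 to 0.07. Wild-type members that were lower were Uchl1 at -2.03, Uchl3 at -1.62, Uchl4 and Ube2e2 at -1.24 each, and Ube2q2 just past the threshold at -1.0. Of these 5, Uchl3 came closest to 2-fold in Mettl3-deficient cells, at -0.92, where it was the lowest member, followed by Ube2d3, Ube2k, Usp47 and Otud6b at -0.79 to -0.50. The single higher member in Mettl3-deficient cells was Otud5, an OTU enzyme of innate immune signalling, with 24.2 RPKM in m6A-tagged and 11.6 RPKM in input RNA, against 38.5 and 37.2 RPKM in wild-type. Its ratio was 1.01 in Mettl3-deficient cells and 0.05 in wild-type cells, and with median-of-ratios or upper-quartile scaling no member was 2-fold higher in Mettl3-deficient cells. Usp25, Ube2q1, Usp21 and Ube2t came next, at 0.62 to 0.42.

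The genotype difference of the m6A-tagged to input ratio was at least 2-fold higher for 4 and lower for 4 members (7.41% and 3.84% of all genes). The higher ones were Uchl1 at 2.43, Uchl4 at 1.5, Ube2t at 1.13 and Usp11 at 1.02, with Otud5 next at 0.96. The lower ones were Ube2f at -1.30, Ube2d1 at -1.14, Ube2d2a at -1.10 and Usp1 at -1.04, with Ube2v1 just short at -1.0. Ube2t had 37 and 27.4 RPKM in Mettl3-deficient m6A-tagged and input RNA, against 21.5 and 35.9 RPKM in wild-type. Usp1, the deubiquitinase that reverses what Ube2t does, went the other way, with 25.5 and 33.3 RPKM in Mettl3-deficient m6A-tagged and input RNA, against 47.2 and 29.2 RPKM in wild-type. Without replicate values it cannot be said whether either difference is larger than the spread between libraries.

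**Figure D4:**
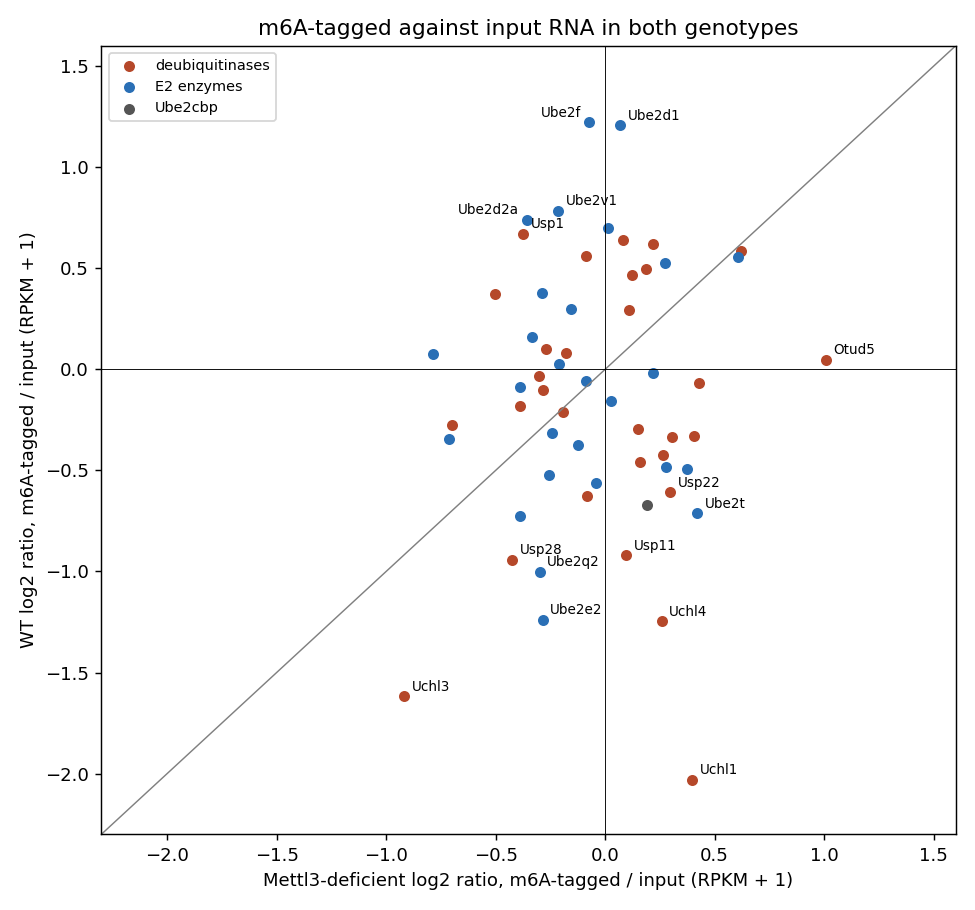
Each point is 1 member's log2 ratio of m6A-tagged to input RNA, (RPKM + 1)/(RPKM + 1), in Mettl3-deficient cells (horizontal) and wild-type cells (vertical); the diagonal marks equal ratios. Ube2f and Ube2d1 lie highest in wild-type cells (1.22 and 1.21), Uchl1 lowest (-2.03), and Otud5 alone lies past 1 in Mettl3-deficient cells.

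In input RNA, which was not selected by the antibody, 0 members stood 2-fold above and 6 stood 2-fold below their wild-type level in Mettl3-deficient cells (2.27% and 8.42% of all genes). Of the 6, Uchl4 had 1.17 RPKM in Mettl3-deficient and 11 RPKM in wild-type input (log2 ratio -2.47). Otud5 had 11.6 RPKM in Mettl3-deficient and 37.2 RPKM in wild-type input (-1.6), Ube2s 3.36 and 11.1 RPKM (-1.48), Usp25 11.2 and 30.5 RPKM (-1.37), Ube2m 13.5 and 34.9 RPKM (-1.31), and Uchl1 1.90 and 5.88 RPKM (-1.24). They belong to different roles, and the share is near that of all genes. The highest input ratios were those of Usp10 at 0.77, Ube2l3 at 0.63, Ube2v1 at 0.61, Usp38 at 0.48 and Ube2n at 0.40, all under 2-fold. The median was -0.25 for the members and -0.08 for all genes. In bulk RNA, fewer cells of a type and less RNA per cell cannot be told apart. The sums of neutrophil, eosinophil and basophil, erythroid and megakaryocyte markers were lower in the same Mettl3-deficient columns, though not every gene was in every fraction. The part of these cells in the genotype differences was not tested.

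In m6A-tagged RNA of Mettl3-deficient cells 3 members stood 2-fold above and 5 stood 2-fold below their wild-type level (5.97% and 9.39% of all genes). The higher ones were Uchl1 at 1.18, with 2.83 and 0.684 RPKM in Mettl3-deficient and wild-type cells, Ube2e2 at 1.08 and Usp11 at 1.02, with Ube2l6 and Usp20 next at 0.85 and 0.78. The lower ones were Ube2d2a at -1.80, with 5.81 RPKM in Mettl3-deficient cells and 22.7 RPKM in wild-type cells, Ube2d1 at -1.65, Usp25 at -1.33, Ube2z (charged by the second ubiquitin E1 enzyme, UBA6) at -1.23 and Ube2f at -1.01. Of these 5, 4 are E2 enzymes, and a ratio below 0 was found for 21 of the 27 E2 enzymes, 17 of the 30 deubiquitinases and 4373 of the 8092 genes. The medians were -0.32 for E2 enzymes, -0.34 for deubiquitinases and -0.07 for all genes.

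Unbound RNA differed most between the genotypes, with 7 members 2-fold higher and 17 lower in Mettl3-deficient cells (18.9% and 23.8% of all genes). Of the 17, 14 were deubiquitinases, and of the 7, 5 were E2 enzymes. Median log2 ratios were -0.88 for deubiquitinases, 0.27 for E2 enzymes and -0.04 for all genes, and -0.66, 0.49 and 0.17 with median-of-ratios scaling. Ube2q2 was the lowest, with 0.930 RPKM in Mettl3-deficient and 12.5 RPKM in wild-type unbound RNA (-2.81), followed by Usp19 at -2.72, Uchl4 at -2.49, Usp28 at -2.33 and Usp33 at -2.25. Usp22, Otud5, Usp20, Usp11, Usp8, Uchl1 and Ube2z came next, at -2.22 to -1.6. The higher ones were Usp10 at 2.24, Ube2v1 at 2.23, Ube2j2 at 2.17, Ube2f at 1.62, Usp1 at 1.18, Ube2r2 at 1.16 and Ube2d1 at 1.02. Ube2v1 had 27.6 RPKM in Mettl3-deficient and 5.09 RPKM in wild-type unbound RNA. The 2 genotypes' unbound columns also differed in depth, as given above, and its part was not tested.

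A single member, Usp25, was 2-fold lower in all 3 fractions of Mettl3-deficient cells (2.99% of all genes), at -1.33 in m6A-tagged, -1.39 in unbound and -1.37 in input RNA. The unbound ratio lies near the other 2 because of the added 1 RPKM, since the unbound values behind it are 0.193 RPKM in Mettl3-deficient cells and 2.13 RPKM in wild-type cells. No member was 2-fold higher in all 3 fractions (0.692% of all genes). Uchl4, Otud5 and Ube2s were 2-fold lower in input and unbound RNA and below 0 in m6A-tagged RNA, and Ube2z was 2-fold lower in m6A-tagged and unbound RNA and 1.99-fold lower in input.

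**Figure D5:**
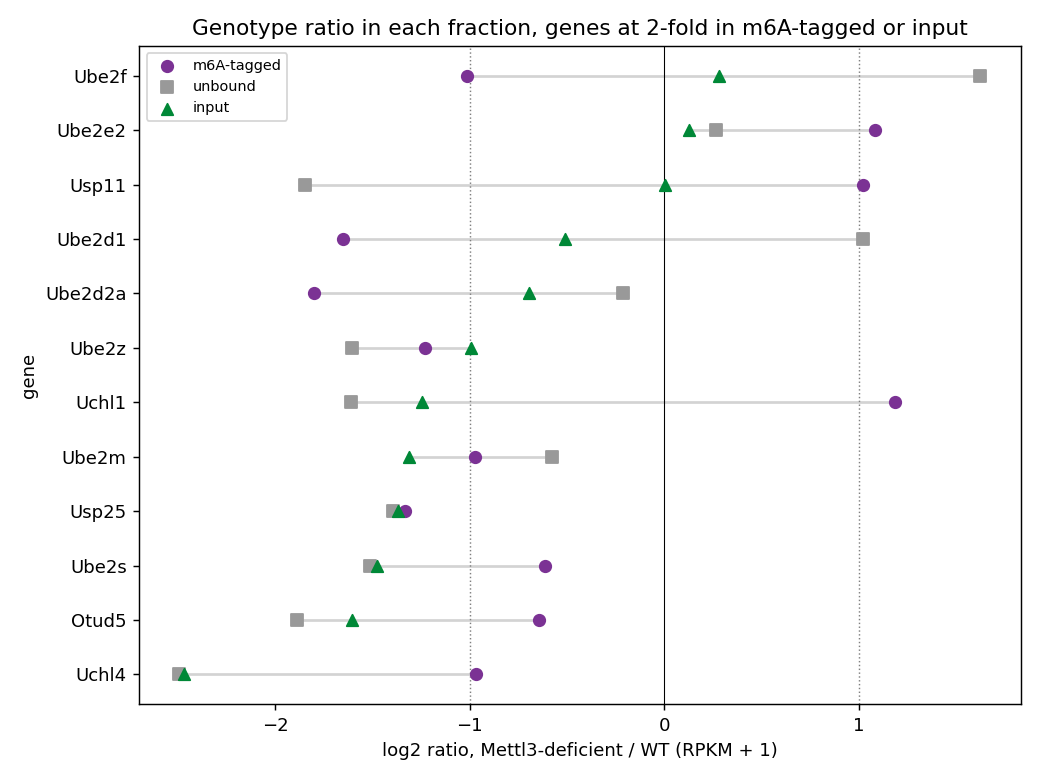
Log2 ratio of Mettl3-deficient to wild-type cells, (RPKM + 1)/(RPKM + 1), in m6A-tagged, unbound and input RNA for the 12 members at 2-fold in m6A-tagged or input RNA; grey lines join the fractions of a gene and dotted lines mark 2-fold. Usp25 is below -1 in all 3 fractions, where its unbound point is set largely by the added 1 RPKM (0.193 RPKM in Mettl3-deficient and 2.13 RPKM in wild-type unbound RNA), while the points of Usp11, Uchl1 and Ube2f lie on both sides of 0.

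Of the 58 members, 10 reached 2-fold in none of the 9 comparisons, 32 only in comparisons that use an unbound column, and 16 also or only between m6A-tagged and input columns or between genotypes in those. Among the 10 were Ube2a and Ube2b (the pair of RAD6-type enzymes), Ube2d3, Ube2g2, Ube2n, Ube2cbp and the deubiquitinases Usp14, Usp21 and Uchl5. Both proteasome-bound deubiquitinases were thus among them. Ube2b had 39.2, 62.6 and 33.5 RPKM in Mettl3-deficient m6A-tagged, unbound and input RNA, against 39.5, 64.4 and 39.97 RPKM in wild-type. Without replicate values a difference under 2-fold does not show that a level was equal.

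Promoters were examined for the 5 genes that were 2-fold lower in at least 2 fractions of Mettl3-deficient cells and below 0 in the third, since these were lower in every kind of RNA. Uchl1 was left out by this rule, being 2-fold lower in input and unbound RNA but higher in m6A-tagged RNA. RefSeq windows of 250 bases before the annotated start (GRCm38.p6) were at hand for 46 of the 58 members, 57 windows in all. The windows of Otud5 and Usp25 fall inside the annotated span of the gene itself and are not printed. That of Usp25 had 80.0% G and C, 47 CpG dinucleotides and none of the motifs searched. The first of Otud5's 2 windows had 63.2% G and C, 22 CpG dinucleotides and 4 matches to the CCAAT and GC boxes described below. Its second window had 1 CCAAT match. The other 3 are given 5′ to 3′ on the gene's strand, with motif matches in capitals. The Uchl4 window, at chr9:64234951-64235200 on the plus strand, lies within the span of Map2k1. The Ube2z window is at chr11:96065365-96065614 and the Ube2s window at chr7:4812341-4812590, both on the minus strand.
Uchl4: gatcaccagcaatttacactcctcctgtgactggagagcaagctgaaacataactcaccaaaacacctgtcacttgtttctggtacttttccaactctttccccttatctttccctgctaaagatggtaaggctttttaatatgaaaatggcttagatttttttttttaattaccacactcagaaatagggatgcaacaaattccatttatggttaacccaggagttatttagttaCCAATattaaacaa
Ube2z: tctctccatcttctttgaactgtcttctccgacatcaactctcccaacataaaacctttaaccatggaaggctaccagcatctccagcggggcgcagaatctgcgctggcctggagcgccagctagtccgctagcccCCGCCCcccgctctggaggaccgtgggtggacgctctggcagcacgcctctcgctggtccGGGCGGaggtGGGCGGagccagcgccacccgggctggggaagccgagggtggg
Ube2s: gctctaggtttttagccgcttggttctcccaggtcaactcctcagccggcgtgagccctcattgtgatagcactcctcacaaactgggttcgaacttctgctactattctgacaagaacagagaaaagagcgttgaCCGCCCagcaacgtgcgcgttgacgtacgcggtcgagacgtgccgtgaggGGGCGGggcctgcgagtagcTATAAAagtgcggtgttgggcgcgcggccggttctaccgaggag

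The 3 windows differed in base composition. The Uchl4 window had 36.0% G and C, 0 CpG dinucleotides and 1 CCAAT match, the Ube2z window 65.2% G and C and 3 GC box matches, and the Ube2s window 58.4% G and C, 2 GC box matches and 1 TATA box. Member windows had medians of 66% G and C and 24 CpG dinucleotides, against 59.6% and 16 for windows of all genes at the minimum. The part of base composition in the motif shares was not tested. Motifs were searched on both strands as exact letters. The GC box (GGGCGG) was in 39 of the 57 member windows (68.4%), against 57.8% of 8339 windows of all genes at the minimum. The CCAAT box (CCAAT) was in 19.3% of member windows and 35.7% of those windows, the ETS site (CCGGAAG) in 24.6% and 15.8%, the E-box (CACGTG) in 7.02% and 8.66%, the TATA box (TATAAA) in 5.26% and 6.08%, and the cyclic AMP response element (TGACGTCA) in 0 and 2.49%. Matches are described, not shown to be bound, and a window without a match says nothing about a factor.

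Other genes of the ubiquitin relay, from lists of 9 groups, are given for scale. Only listed genes at the minimum mean of 5 RPKM are counted, such as 7 of 19 HECT ligases and 26 of 36 RING and RBR ligases. That mean includes the unbound columns that are compared here. Among all genes, 39.6% were higher and 13.9% lower in m6A-tagged than in unbound RNA of Mettl3-deficient cells, and 36.9% and 16.4% in wild-type cells. Of the 9 E1 genes, 5 were 2-fold higher and 0 lower when Mettl3-deficient m6A-tagged RNA was set against unbound RNA, and 2 higher and 3 lower in wild-type cells. Uba1, the main ubiquitin E1 enzyme, had 125 and 54.6 RPKM in Mettl3-deficient m6A-tagged and unbound RNA, against 66.0 and 306 RPKM in wild-type. Of 7 HECT ligase genes, 6 were higher and 0 lower in Mettl3-deficient cells and 2 higher and 0 lower in wild-type cells, and all 7 were 2-fold lower in Mettl3-deficient than in wild-type unbound RNA (23.8% of all genes). Nedd4, 1 of these HECT ligase genes, had 9.16 RPKM in Mettl3-deficient and 107 RPKM in wild-type unbound RNA. Of 26 RING and RBR ligase genes, 18 were higher and 0 lower in Mettl3-deficient cells and 15 higher and 3 lower in wild-type cells. Of 26 cullin-RING subunits, 15 were higher and 5 lower in Mettl3-deficient cells and 11 higher and 4 lower in wild-type cells. The 12 genes of ubiquitin and its relatives leaned to the unbound side as the E2 enzymes did, with 1 higher and 6 lower in Mettl3-deficient cells and 3 higher and 5 lower in wild-type cells. Rps27a, a ubiquitin and ribosomal protein fusion gene, had 22.4 and 177 RPKM in Mettl3-deficient m6A-tagged and unbound RNA, against 18.2 and 60.1 RPKM in wild-type. Among 19 deubiquitinase genes of other names 9 were higher and 3 lower in Mettl3-deficient cells and 7 higher and 6 lower in wild-type cells, and among 15 SUMO and NEDD8 protease genes 4 were higher and 1 lower, and 5 higher and 2 lower. The 16 cofactors of the member enzymes had 6 higher and 2 lower in Mettl3-deficient cells and 6 higher and 4 lower in wild-type cells, and the 6 E2 genes of other names had 0 higher and 1 lower, and 0 higher and 4 lower.

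Input RNA of Mettl3-deficient cells, set against wild-type input, had 2.27% of all genes higher and 8.42% lower by 2-fold. Of 12 ubiquitin and ubiquitin-like genes, 2 were higher and 1 was lower. Rps27a, one of the higher ones, had 61.8 RPKM in Mettl3-deficient and 28.5 RPKM in wild-type input (log2 ratio 1.09). Among listed genes at the minimum mean, no E1 or HECT ligase gene passed 2-fold in input, and 0 RING and RBR ligase genes were higher and 3 were lower. Isg15, whose product Ube2l6 conjugates, had 17.0 RPKM in the input of both genotypes.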

How the data were processed

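The 18 libraries (3 for each of 2 genotypes and 3 fractions) were made by the Smart-seq2 method and read as pairs of 150 bases on a NextSeq, per the labels' protocols. The authors deposited 2 tables, 1 per genotype, with a column of RPKM for each fraction. The values of each column fit a mean of 3 libraries with 1 read added per gene and library. No other number of libraries or of added reads was tried. The submitters' processing notes name the build mm10 and the tools Picard and edgeR, without roles or versions. Which aligner and counter were used is not given in the sources used here.

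Both tables were joined by gene ID (26 symbols differ between them) with pandas 2.3.3. Columns were compared as log2((RPKM + 1)/(RPKM + 1)) for genes that averaged 5 RPKM or more, and 2-fold differences were called. A test across libraries had been planned for the case of separate values per library, and with pooled columns none could be run. The computation was tested on simulated data. Depth was estimated from genes with 0 or 1 read. The members, roles and lists were chosen with earlier results of these data known. Named are members past 2-fold in a comparison (at most 12 per direction, or the 5 furthest where fewer than 5 passed), the 10 highest in wild-type input and the sole members of some roles, plus at most 3 genes per list and direction; 1 member and 1 listed gene within this rule are counted but not reported here by name. Usp7, Usp9x, Usp34, Isg15 and some single marker genes are named outside this rule and were chosen after their values were seen. Also outside it are Usp15 and Usp46 (of a pattern listed in full), Ube2b and Ube2g2 (without a call), Ube2cbp and Usp40. Spans and promoters came from RefSeq (GRCm38.p6). Alternatives were an added 0.1 or 5 RPKM, no minimum or 10 RPKM, and median-of-ratios or upper-quartile scaling.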

Additional observations from a re-analysis of the deposited data

How the results depend on the processing

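Of 108 counts of members recomputed under 6 alternatives, 85 stayed within 1.5 times and 23 moved. Of 671 values of named genes, 634 stayed past 2-fold, 37 did not and 0 reversed. Of the 634, 118 with no minimum and 81 with a minimum of 10 RPKM could not change, since the minimum does not enter a ratio. Another added RPKM cannot reverse a ratio of 2 columns, and a smaller one can only enlarge it. With 5 RPKM added, 89 values stayed past 2-fold and 29 did not. The moved counts are given as percentages of members. With 5 RPKM added, the genotype difference of m6A-tagged to input was higher in 3.45% and lower in 3.45%, wild-type m6A-tagged to input lower in 1.72%, Mettl3-deficient m6A-tagged to input higher in 0, Mettl3-deficient to wild-type input lower in 6.9%, and m6A-tagged RNA between genotypes higher in 0 and lower in 5.17%. With 0.1 RPKM added, the genotype difference of m6A-tagged to input was higher in 10.3%. With no minimum that difference was lower in 4.08%, m6A-tagged to input higher in 3.06% in Mettl3-deficient cells and 2.04% in wild-type cells, m6A-tagged to unbound lower in 10.2% and 13.3%, and unbound RNA between genotypes higher in 7.14%. With a minimum of 10 RPKM, the m6A-tagged to input difference was higher in 4.55%, wild-type m6A-tagged to input lower in 4.55%, and input between genotypes lower in 6.82%. With median-of-ratios scaling, m6A-tagged to unbound was lower in 36.2% in Mettl3-deficient cells and 37.9% in wild-type cells, and Mettl3-deficient m6A-tagged to input higher in 0 and lower in 1.72%; upper-quartile scaling gave the same 0 and 1.72%. The cause was not tested.

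No paired analysis was possible because the columns are means of 3 libraries. Leaving out a replicate and the replicate block were not run for the same reason. Low unbound values and the shallower Mettl3-deficient input and unbound libraries limit what single genes show.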
